A study of Homo sapiens with 9 samples.

Results

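ATP-binding cassette (ABC) transporters were described in human liver tumours grown in mice, on 9 Illumina expression arrays. The genes were taken from the probe table by their symbol, which had to be ABC followed by a subfamily letter from A to G and a number. The rule found 89 probes for 47 genes, out of 30818 named genes. It used no measured value. One of the 47 is listed under the older symbol ABCA11 and is now the pseudogene ABCA11P.

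ABC proteins bind and hydrolyse ATP, and most of them use it to move lipids, bile constituents, drugs, peptides or metal cofactors across membranes. In hepatocytes the canalicular members pump bile salts, phospholipid, sterols and conjugates into bile, and the basolateral members return conjugates to blood. The ABCE and ABCF proteins have the ATP-binding domains but no membrane domain, and act on ribosomes and translation.

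The tumours were of Hep3B, an established human hepatocellular carcinoma line, implanted in the livers of Nod/Scid mice, which lack working T and B cells and keep other host cells such as macrophages, endothelium and hepatocytes. They grew for about 5 weeks, to an estimated 80 to 100 mg judged from serum alpha-fetoprotein. Each mouse then had 1 intravenous injection and was killed 24 h later. The injection was dilution buffer in 3 tumours, empty liposomes in 3 and MRX34, a liposome carrying a synthetic mimic of the microRNA miR-34a, in 3. All 9 tumours thus share the line, the host strain and the site. Neither the dose nor the age of the mice is stated in the labels, and they do not say whether each array stands for a different mouse, so p-values measure only the spread between these samples. RNA came from whole tumours and includes host RNA. In such bulk RNA, fewer cells of a type and less RNA per cell cannot be told apart.

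The natural strand that MRX34 mimics is shown because it defines the agent; any chemical change in the injected mimic is not described in the labels. Its seed, bases 2 to 8, is in capitals, and the sequence is RefSeq's human miR-34a-5p (GRCh38.p14, chr1:9151735-9151756, minus strand).
hsa-miR-34a-5p: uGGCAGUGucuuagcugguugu

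3 upstream regions are shown from RefSeq's promoter table (GRCh38.p14), which held 35 of the 47 genes. They are those of ABCB1 and ABCF2, the genes with the smallest p in each direction after MRX34, and the stretch between the starts of ABCG5 and ABCG8, a sterol transporter pair transcribed away from each other. The ABCB1 stretch (chr7:87600885-87601134, minus strand) is the 250 bases before 1 of 2 annotated starts, the one that holds CCAAT, and the ABCF2 stretch (chr7:151227206-151227455, minus strand) the 250 bases before its start. Capitals mark CCAAT and GGGCGG, the letters of the CCAAT box and the GC box, on either strand.
ABCB1 upstream: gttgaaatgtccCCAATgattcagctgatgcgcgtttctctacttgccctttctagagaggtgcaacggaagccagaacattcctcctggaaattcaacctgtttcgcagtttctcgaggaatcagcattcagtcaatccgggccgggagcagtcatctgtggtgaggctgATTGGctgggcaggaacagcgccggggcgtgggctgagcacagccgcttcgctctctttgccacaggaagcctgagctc
ABCF2 upstream: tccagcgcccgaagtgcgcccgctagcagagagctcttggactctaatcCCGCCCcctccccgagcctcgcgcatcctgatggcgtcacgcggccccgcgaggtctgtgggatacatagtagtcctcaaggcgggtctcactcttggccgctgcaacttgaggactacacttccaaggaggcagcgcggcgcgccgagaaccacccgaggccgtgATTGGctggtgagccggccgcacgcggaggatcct
Between the ABCG5 and ABCG8 starts lie 131 bases (chr2:43838840-43838970, shown on the plus strand), where capitals mark the motif AGATAA, which GATA factors can bind, on either strand.
ABCG5 to ABCG8: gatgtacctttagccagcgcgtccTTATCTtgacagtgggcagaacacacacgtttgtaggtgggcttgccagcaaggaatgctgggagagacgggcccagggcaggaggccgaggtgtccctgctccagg

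CCAAT stood at 2 places in the ABCB1 stretch and at 1 in the ABCF2 stretch, where 30 bases separated it from the start. It was found in 32.0% of all 35116 upstream windows of the table and in 20.8% of the 53 windows of ABC genes. GGGCGG stood once before ABCF2, in 42.6% of all windows and in 47.2% of the ABC windows. AGATAA stood once between ABCG5 and ABCG8, and 9.17% of all windows held it, against 9.43% of the ABC windows. The E-box letters CACGTG were in 6.34% of all windows and in 17.0% of the ABC windows, in 8 of 35 genes. These are matches of letters and describe the windows only.

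An array probe was counted as above background where its deposited detection p-value was under 0.05, and a gene was tested where a probe was above background on at least 3 of the 9 arrays. Of the 47 ABC genes, 35 were tested (74.5%), against 49.9% of all named genes. 19 were above background on all 9 arrays, 16 on 3 to 8, 3 on 1 or 2 and 9 on none. The filter can pass a gene through 1 group alone, so the 35 are not all members. The number of ABC genes above background ran from 22 on empty liposomes array 1 to 35 on dilution buffer array 2. Empty liposomes array 1 also had the lowest mean intensity, and 31.2% of its named probes were above background, against 37.6% to 46.6% on the other 8 arrays.

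In subfamily ABCB 6 of 9 genes were above background on every array. ABCB11, the bile salt export pump, was above background on no array, nor was ABCB5. ABCB8, a mitochondrial member, was above background on dilution buffer array 3 only, with a log2 intensity of 5.65 there and 4.51 to 4.85 elsewhere. In ABCG, whose members work as pairs, ABCG2, the breast cancer resistance protein, was above background on none, whereas ABCG8 was on all 9. ABCC, the multidrug resistance protein subfamily, had 12 genes, of which 5 were above background on all arrays. ABCC8, a subunit of the pancreatic potassium channel, and ABCC12 were on none, and ABCC1, the founding multidrug resistance protein, was above background on 1 array. ABCA, mainly lipid transporters, had 13 genes, of which ABCA1, ABCA7 and ABCA9 were above background throughout and ABCA2, ABCA12 and ABCA13 nowhere. In the peroxisomal subfamily ABCD, ABCD3 was on all arrays and ABCD2 on none. The best probe of ABCD4, a lysosomal vitamin B12 transporter, was above background on 2 arrays. ABCE1, ABCF1 and ABCF2 were above background on all 9 and ABCF3 on 7.

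**Figure D1:**
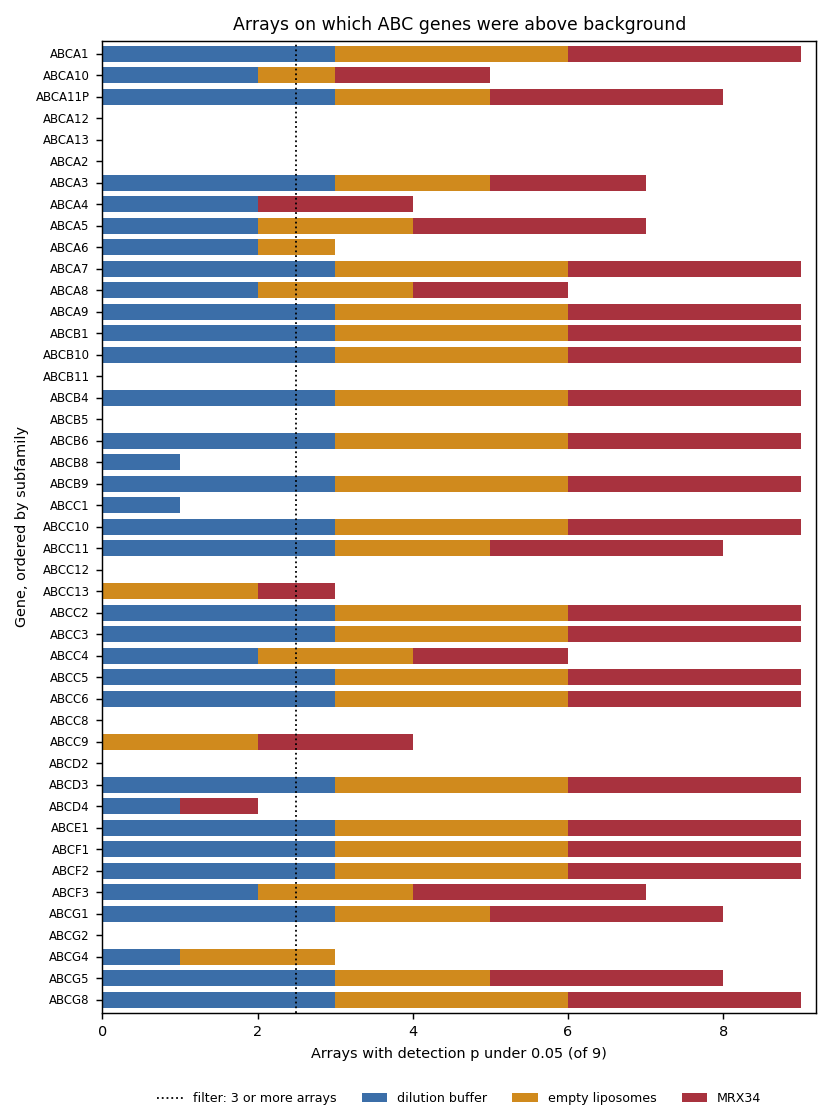
Horizontal bars give the number of arrays (of 9) on which the best probe of each of 45 ABC genes had a detection p under 0.05, split by group. The dotted line marks the filter of 3 arrays, which 33 of these genes passed. ABCB11 and ABCG2 have no bar.

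Levels are log2 intensities after background correction and quantile normalization, from the brightest probe of each gene, and no level is set against another gene's. Over the 9 arrays the tested ABC genes ranged from 1.29-fold (ABCC3) to 7.93-fold (ABCF2) between the lowest and the highest array. The pooled SD within groups had a median of 0.36 log2 units in the 35 genes and 0.34 in all 15387 tested genes. In the map of levels, the columns of empty liposomes array 1 and MRX34 array 2 stand out, which are also the arrays farthest apart on the first principal component of all genes.

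**Figure D2:**
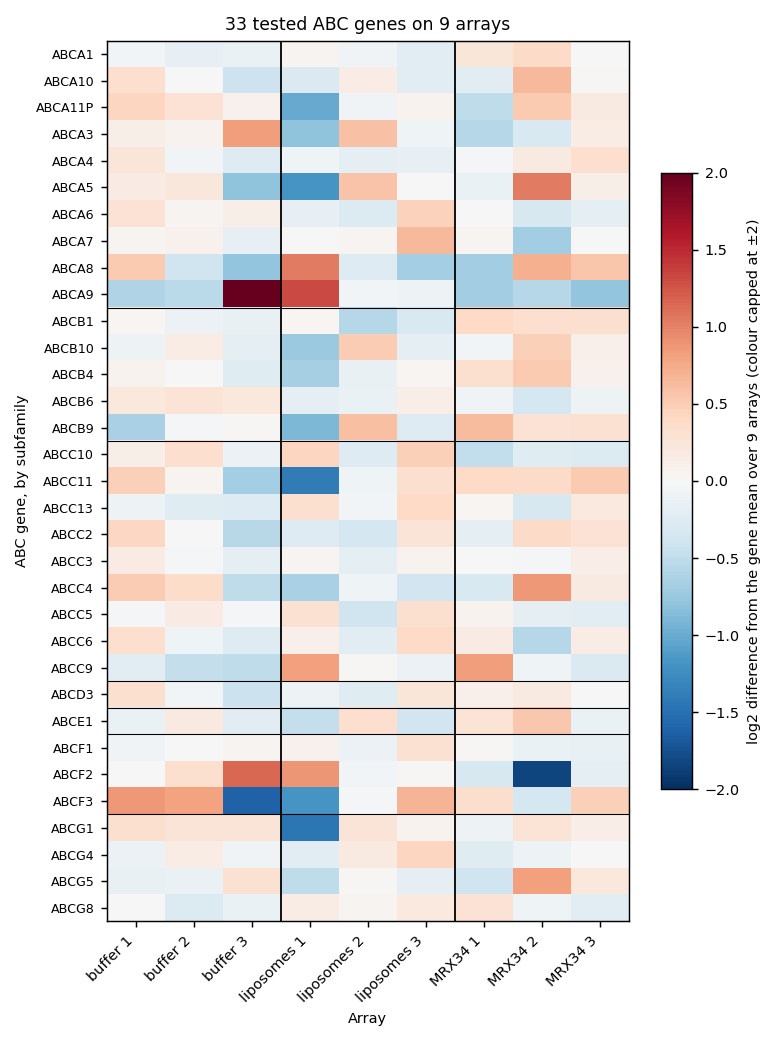
Colour gives each array's log2 difference from the gene's mean over 9 arrays, for 33 tested ABC genes in rows by subfamily and the arrays in columns by group. ABCA9 is high on dilution buffer array 3 (8.90) and ABCF2 low on MRX34 array 2 (6.27).

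Samples differed in host liver signal. The mean log2 level of GNMT and OTC, 2 genes of mature hepatocytes, was 8.21, 10.06 and 14.32 after dilution buffer, 13.57, 11.95 and 10.80 after empty liposomes, and 11.0, 10.05 and 7.73 after MRX34. The Hep3B markers AFP and GPC3 were above background on all arrays, and their summed level lay between 15.41 and 15.69. Of 5 macrophage markers 3 were tested, with a summed level of 10.97 to 11.53 in the controls and 11.48 to 11.62 after MRX34. One by one, 1 of these markers was higher and 2 were lower after MRX34 than in the controls, with a median difference of -0.02. VWF, CDH5 and STAB2 of endothelium and the leukocyte marker PTPRC were above background on no array. PECAM1, the other endothelial marker, was 4.90 to 5.53 in the controls and 5.71 to 6.01 after MRX34, a log2 difference of 0.73 (SE 0.19, limma adjusted p = 0.309). PECAM1 was not above background on all 9 arrays. Its levels lay near the lowest level above background, which ran from 5.11 to 6.03 by array, so the size of that difference is uncertain. The stellate cell and fibroblast markers (2 of 4 tested) summed to 9.64 to 10.46 in the controls and 9.92 to 10.08 after MRX34, and the 4 erythrocyte markers to 13.68 to 15.01 and 13.83 to 15.03. The probes are for human transcripts, and binding of mouse RNA to them was not tested. The part of host cells in the differences below was not tested beyond the slope on the liver level.

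The first comparison set the 3 MRX34 arrays against the 6 control arrays, which asks how tumours given MRX34 differed from those given either control. In the limma fit no ABC gene passed an adjusted p of 0.05, and none of the 15387 tested genes did (0%). At an unadjusted p under 0.05 there were 5 ABC genes of 35 (14.3%), against 1711 genes (11.1%) overall. They included ABCB1 and ABCB4, which were higher, and ABCF2 and ABCC10, which were lower. The overall shares were 6.88% higher and 4.24% lower. With a replicate block, which treats arrays of the same number as sets, the 5 became 3, with ABCB1 and ABCF2 among them. The share of all genes was then 12.5%. Of the 35 differences 21 were above 0 (60%) and 14 below, where 55.0% of all genes were above 0. The median of the 35 was 0.15 log2 units, against 0.04 for all genes. Leaving out 1 array moved that median to 0.05 (dilution buffer array 3), 0.07 (MRX34 array 2), 0.08 (empty liposomes array 1), 0.10 (MRX34 array 3) or 0.24 (dilution buffer array 1). With median scaling of the other deposited table the split was 16 to 19 and the median -0.04, but that scaling also moved the median of all genes to -0.08.

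**Figure D3:**
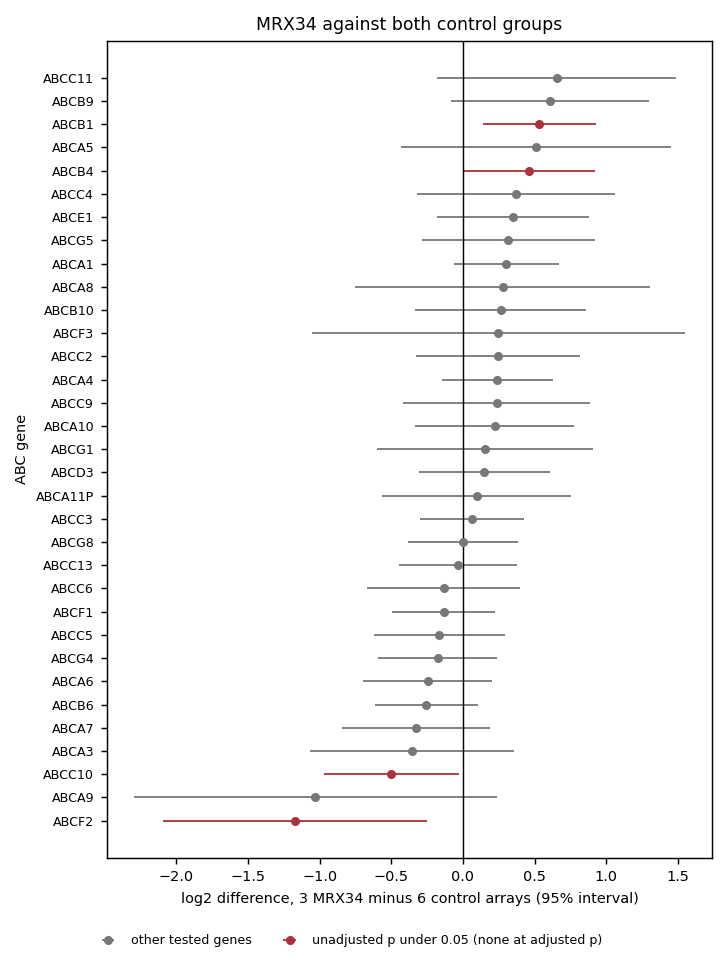
Points are log2 differences of the 3 MRX34 minus the 6 control arrays for 33 tested ABC genes, with 95% intervals, ordered by size. The genes in red had an unadjusted p under 0.05, from ABCB1 at 0.53 and ABCB4 at 0.46 to ABCF2 at -1.17. The interval of ABCB4 starts just above 0.

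The bile and drug exporters of subfamily ABCB come first. ABCB1, P-glycoprotein, pumps many drugs out of cells, and its log2 levels were 10.27, 10.11 and 10.08 after dilution buffer, 10.28, 9.67 and 9.93 after empty liposomes and 10.64, 10.57 and 10.56 after MRX34. All 3 MRX34 arrays lay above all 6 controls, and the MRX34 arrays were close to one another. The difference was 0.53 (SE 0.18, unadjusted p = 0.0131, limma adjusted p = 0.374), a 95% interval of 0.14 to 0.93 and 1.45-fold in size.

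The second ABCB1 probe read 7.69, 7.70 and 7.56 after dilution buffer, 5.81, 8.17 and 7.36 after empty liposomes and 8.39, 9.0 and 8.13 after MRX34. MRX34 arrays 1 and 2 were above every control, and MRX34 array 3, at 8.13, lay just under empty liposomes array 2, at 8.17. Its difference was 1.13, in the same direction and larger. Empty liposomes array 1 was the lowest array of this probe, at 5.81. The probe was not above background there, so the size of its difference is uncertain.

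ABCB4 moves phosphatidylcholine into bile, and its levels were 7.80, 7.73 and 7.48 after dilution buffer, 7.06, 7.57 and 7.76 after empty liposomes and 8.04, 8.25 and 7.81 after MRX34. The lowest MRX34 array, at 7.81, was barely above the highest control, at 7.80. The difference was 0.46 (SE 0.20, unadjusted p = 0.0463, limma adjusted p = 0.447), 1.38-fold. With array weights it was 0.17.

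ABCB10, a mitochondrial member linked to haem formation, read 9.27, 9.53 and 9.19 after dilution buffer, 8.64, 9.89 and 9.20 after empty liposomes and 9.32, 9.85 and 9.48 after MRX34, with overlapping groups and a difference of 0.26 (SE 0.27, limma adjusted p = 0.721). ABCB6, a porphyrin transporter, read 10.35, 10.41 and 10.35 after dilution buffer, 9.96, 10.01 and 10.28 after empty liposomes and 10.08, 9.79 and 10.05 after MRX34, and was the 1 of 6 ABCB genes that was lower, at -0.25 (SE 0.16, limma adjusted p = 0.557). ABCB9, a lysosomal peptide transporter, read 7.57, 8.18 and 8.24 after dilution buffer, 7.32, 8.81 and 7.95 after empty liposomes and 8.85, 8.50 and 8.51 after MRX34, and its difference was 0.61 (SE 0.31, limma adjusted p = 0.482). Of its 3 tested probes, 1 near background went the other way, at -0.14. The median difference of the 6 tested ABCB genes was 0.50, and 5 of 6 were higher under each scaling and each left-out array. Without both empty liposomes array 1 and MRX34 array 2, 4 of 6 were higher. Among all genes 55.0% were higher in the main fit.

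MRX34 lay beyond all 6 controls in 4 ABC genes of 35, among them ABCB1 and ABCB4, which were higher, and ABCF2, which was lower. Among all genes this held for 4.85% upward and 2.11% downward. ABCF2 is a cytosolic ABC ATPase, and its levels were 8.11, 8.43 and 9.26 after dilution buffer, 8.98, 8.05 and 8.13 after empty liposomes and 7.78, 6.27 and 7.92 after MRX34. MRX34 array 2 stood well below the other 2 MRX34 arrays, and dilution buffer array 3 and empty liposomes array 1 were the highest. The difference was -1.17 (SE 0.41, unadjusted p = 0.0179, limma adjusted p = 0.389), 2.25-fold lower. It was -0.65 without MRX34 array 2. A second ABCF2 probe read 6.65, 7.14 and 7.38 after dilution buffer, 6.78, 6.14 and 5.66 after empty liposomes and 6.22, 6.44 and 6.50 after MRX34, with overlapping groups and a difference of -0.24.

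ABCC10, a drug and conjugate pump, read 7.55, 7.75 and 7.31 after dilution buffer, 7.86, 7.17 and 7.90 after empty liposomes and 6.94, 7.18 and 7.16 after MRX34. The MRX34 arrays overlapped empty liposomes array 2, which was the lowest control. The difference was -0.50 (SE 0.21, unadjusted p = 0.0408, limma adjusted p = 0.434). Without MRX34 array 2 only ABCB1 kept an unadjusted p under 0.05 among the 5, and over all 9 single omissions the count ran from 1 to 6. The share of all genes ran from 6.88% to 14.7% over those omissions.

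**Figure D4:**
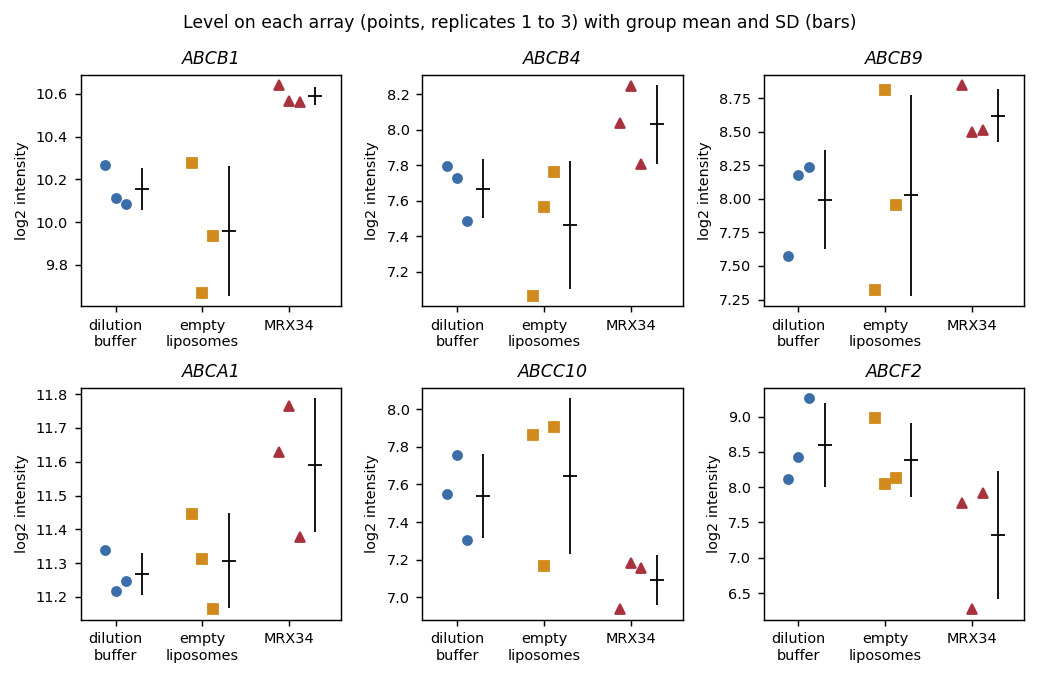
Points are log2 intensities on each array in 3 groups for 6 ABC genes, with the group mean and SD as bars, each panel on its own scale. MRX34 points lie above all controls for ABCB1 and ABCB4 and below them for ABCF2, and overlap them for ABCB9, ABCA1 and ABCC10.

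The remaining conjugate pumps showed no difference past the unadjusted threshold. ABCC2, which exports glucuronides and glutathione conjugates into bile, read 9.80, 9.38 and 8.83 after dilution buffer, 9.13, 9.02 and 9.63 after empty liposomes and 9.19, 9.77 and 9.67 after MRX34. Its arrays overlapped, and the difference was 0.25 (SE 0.26, limma adjusted p = 0.727) with an interval of -0.33 to 0.82. ABCC3, the basolateral counterpart, read 10.81, 10.61 and 10.45 after dilution buffer, 10.69, 10.46 and 10.70 after empty liposomes and 10.65, 10.61 and 10.78 after MRX34. It varied least of all 35 genes, and its difference of 0.06 (SE 0.16, limma adjusted p = 0.9) had an interval of -0.30 to 0.42. A second ABCC3 probe, above background on 3 arrays, gave -0.03.

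ABCC4, which exports bile acids and cyclic nucleotides, was above background on 6 arrays and read 6.24, 6.10 and 5.22 after dilution buffer, 5.08, 5.65 and 5.35 after empty liposomes and 5.42, 6.60 and 5.92 after MRX34. Its difference was 0.37 (SE 0.31, limma adjusted p = 0.65), and MRX34 array 2 was its highest array. ABCC6, whose loss causes ectopic calcification, was measured by 6 probes. Its brightest read 10.62, 10.19 and 10.02 after dilution buffer, 10.38, 10.07 and 10.66 after empty liposomes and 10.44, 9.71 and 10.43 after MRX34, a difference of -0.13 (SE 0.24, limma adjusted p = 0.856), and the 6 probes ran from -0.53 to 0.45. ABCC6 has near-identical pseudogenes, and probes named ABCC6P1 and ABCC6P2 were also above background on all 9 arrays, so these values are uncertain. Their differences were 0.35 and -0.16.

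ABCC5, a cyclic nucleotide exporter, differed by -0.17 (SE 0.20, limma adjusted p = 0.777), and ABCC11, a lipophilic anion pump, by 0.65 (SE 0.37, limma adjusted p = 0.524). ABCC11 read 6.93, 6.49 and 5.76 after dilution buffer, 5.05, 6.36 and 6.77 after empty liposomes and 6.85, 6.83 and 6.97 after MRX34, so its MRX34 arrays lay close together at the top of the range that the controls spread over. The second ABCC11 probe gave -0.02.

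Among sterol transporters, ABCA1, which loads cholesterol onto apolipoprotein A-I, read 11.34, 11.22 and 11.25 after dilution buffer, 11.45, 11.31 and 11.16 after empty liposomes and 11.63, 11.77 and 11.38 after MRX34. The 2 highest arrays were MRX34 arrays 1 and 2, and MRX34 array 3 lay among the controls. The difference was 0.30 (SE 0.16, unadjusted p = 0.094, limma adjusted p = 0.504). ABCG1, which passes cholesterol to HDL, read 7.56, 7.51 and 7.50 after dilution buffer, 5.80, 7.50 and 7.31 after empty liposomes and 7.15, 7.52 and 7.37 after MRX34, and differed by 0.15 (SE 0.34, limma adjusted p = 0.882). Empty liposomes array 1 was far below the rest, where the probe was also not above background. A second ABCG1 probe was above background on 3 arrays and read 8.20 on that same array, against 4.63 to 5.95 on the other 8, and another probe read 7.29 there.

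ABCG5 and ABCG8 form 1 heterodimer that secretes sterols into bile and share the stretch shown above. ABCG5 read 6.16, 6.18 and 6.62 after dilution buffer, 5.81, 6.33 and 6.13 after empty liposomes and 5.91, 7.14 and 6.52 after MRX34, with a difference of 0.32 (SE 0.27, limma adjusted p = 0.661). ABCG8 read 9.56, 9.28 and 9.42 after dilution buffer, 9.70, 9.60 and 9.74 after empty liposomes and 9.83, 9.47 and 9.34 after MRX34, with a difference of -0.0014 (SE 0.17, limma adjusted p = 0.999). The highest array was MRX34 array 2 for ABCG5 and MRX34 array 1 for ABCG8. The MRX34 arrays overlapped both control groups for each gene, whereas for ABCG8 the empty liposomes arrays all lay above the dilution buffer arrays.

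The lipid and translation members were as follows. ABCA3, the surfactant lipid transporter, differed by -0.35 (SE 0.32, limma adjusted p = 0.678), ABCA5, a lysosomal member, by 0.51 (SE 0.42, limma adjusted p = 0.647), and ABCA7, a phospholipid transporter, by -0.33 (SE 0.23, limma adjusted p = 0.594). ABCD3, which imports bile acid precursors into peroxisomes, differed by 0.15 (SE 0.20, limma adjusted p = 0.806). ABCE1, which recycles ribosomes, read 9.29, 9.60 and 9.21 after dilution buffer, 8.95, 9.76 and 9.04 after empty liposomes and 9.70, 9.97 and 9.30 after MRX34, a difference of 0.35 (SE 0.24, limma adjusted p = 0.583), and its second probe gave 0.25. ABCF1, which acts in translation initiation, differed by -0.13 (SE 0.16, limma adjusted p = 0.768), with an interval of -0.50 to 0.23, and ABCF3 by 0.25 (SE 0.58, limma adjusted p = 0.889).

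Against empty liposomes alone, which carry no miR-34a, 0 ABC genes passed the adjusted threshold (0% of all genes), and 4 had an unadjusted p under 0.05 against 9.35% of all genes. Among them were ABCB1 at 0.63 (SE 0.20, unadjusted p = 0.0115, limma adjusted p = 0.469), ABCB4 at 0.57 (SE 0.23, unadjusted p = 0.0372, limma adjusted p = 0.524) and ABCC10 at -0.55 (SE 0.24, unadjusted p = 0.0479, limma adjusted p = 0.533). Without empty liposomes array 1 the ABCB4 value was 0.37. ABCF2 followed just past that threshold at -1.06 (SE 0.48, unadjusted p = 0.05, limma adjusted p = 0.533), where its second probe gave 0.20, and ABCA7 at -0.45 (SE 0.27, unadjusted p = 0.127, limma adjusted p = 0.595). Without MRX34 array 2 they were -0.54 and -0.20, and ABCA7 was -0.24 without empty liposomes array 3. The arrays did not overlap in 7 ABC genes, against 14.4% of all genes. Among them ABCB1, ABCB4 and ABCC11 were higher and ABCA9 and ABCF2 lower. ABCA4 was counted too, but no empty liposomes array was above background for it and its MRX34 mean was under the bound there, so no difference was measured. With only these groups in the fit, ABCA9 and ABCB1 were among those with an unadjusted p under 0.05. Of the 35 genes 20 were higher (57.1%), against 55.0% of all genes. The median of the 35 was 0.15, against 0.05 for all genes. Without empty liposomes array 1 the median of the 35 was 0.05, without MRX34 array 2 0.09 and without MRX34 array 1 0.25.

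Against dilution buffer alone no ABC gene passed the adjusted threshold (0% of all genes), and 1, ABCF2 at -1.28 (SE 0.48, unadjusted p = 0.0232, limma adjusted p = 0.451), had an unadjusted p under 0.05, against 10.1% of all genes. It was -0.75 without MRX34 array 2. Without that array or without dilution buffer array 3 the count was 0, against 7.12% and 5.45% of all genes. ABCB6 was lower at -0.40 (SE 0.19, unadjusted p = 0.0575, limma adjusted p = 0.499) and ABCC10 at -0.45 (SE 0.24, unadjusted p = 0.0993, limma adjusted p = 0.547). ABCB1 was higher at 0.43 (SE 0.20, unadjusted p = 0.0586, limma adjusted p = 0.499) and ABCB9 at 0.62 (SE 0.36, unadjusted p = 0.112, limma adjusted p = 0.564), which was 0.41 without dilution buffer array 1. The comparisons with each control group share the MRX34 arrays, so they are not independent. Of the 35 genes 21 were higher (60%), against 54.1% of all genes. The median of the 35 was 0.15, against 0.04 for all genes. That median was -0.03 without dilution buffer array 3 and 0.09 without MRX34 array 2 or MRX34 array 3.

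The other ABCA genes lay near background. ABCA8 was above background on 6 arrays, ranged over 5.14 to 6.97 and differed by 0.28 (SE 0.46, limma adjusted p = 0.842). ABCA10 was on 5 arrays, at 4.85 to 5.91, with a difference of 0.22 (SE 0.25, limma adjusted p = 0.749). The pseudogene ABCA11P was on 8, at 5.54 to 7.06, with 0.09 (SE 0.29, limma adjusted p = 0.917). ABCA4, the flippase of the retina, was on 4 arrays at 4.95 to 5.53. The tested ABCA6 probe was above background on 3 arrays and ranged over 4.83 to 5.61. ABCG4, a sterol transporter best known from brain, was on 3 at 4.86 to 5.53. No MRX34 array was among them for either probe. The other ABCA6 probe went the opposite way, above background on 2 MRX34 arrays and on no control array. It read 4.93, 5.75 and 5.63 after MRX34 and 4.82 to 5.17 in the controls. For ABCC13 and the tested ABCC9 probe no dilution buffer array was above background. Another ABCC9 probe was above background on 1 dilution buffer array and on 1 empty liposomes array. It read highest on dilution buffer array 3, at 5.82. With several probes past the filter, 11 ABC genes could be read more than once, and in 5 of them (ABCB9, ABCC11, ABCC3, ABCC6 and ABCG1) probes differed in sign for MRX34 against controls, where the second ABCG1 probe gave -0.35.

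Empty liposomes against dilution buffer measured the carrier. No ABC gene passed the adjusted threshold (0% of all genes), and none had an unadjusted p under 0.05 by its brightest probe, against 5.76% of all genes. With every probe fitted on its own, 3 ABC genes had one, against 6.21% of all probes. A dimmer ABCC6 probe was at -1.45 (limma unadjusted p = 0.0085, adjusted p = 0.737) and the second ABCF2 probe at -0.87 (limma unadjusted p = 0.0184, adjusted p = 0.737). That ABCC6 probe read 5.16 on empty liposomes array 1, where it was not above background. The second ABCG1 probe was higher but above background on no dilution buffer array. Of the 35 genes 14 were higher (40%) and 21 lower, where 46.9% of all genes were higher. The median of the 35 was -0.09, and -0.03 for all genes. Over single omissions of an array it ran from -0.16 without dilution buffer array 3 to 0.0082 without dilution buffer array 1. ABCC13, a pseudogene in humans, was not well above background on any dilution buffer array and was on 2 of 3 empty liposomes arrays, with readings of 5.60, 5.23 and 5.68 on all 3 (limma adjusted p = 0.766). The tested probe of ABCC9, the sulphonylurea receptor of cardiac and vascular potassium channels, was likewise not well above background after dilution buffer. It was above background on 2 of 3 arrays after empty liposomes, at 6.12, 5.32 and 5.19 (limma adjusted p = 0.766), where array 1 was the highest. Another ABCC9 probe was above background on 1 array of each of these groups and read highest on dilution buffer array 3, at 5.82. No fold is given for ABCC13 or ABCC9. ABCG8 was higher at 0.26 (SE 0.20, limma adjusted p = 0.803). ABCA11P was lower at -0.61 (SE 0.34, limma adjusted p = 0.766), ABCG1 at -0.65 (SE 0.39, limma adjusted p = 0.771) and ABCB6 at -0.29 (SE 0.19, limma adjusted p = 0.781). Without empty liposomes array 1 the values were -0.28 for ABCA11P and -0.11 for ABCG1, and averaging the probes of ABCG1 gave 0.48. With median scaling, which moved the median of all genes to 0.14, ABCA11P was at -0.11 and ABCG1 at -0.17.

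The fit of each gene on the liver level, with group terms, called 28 of all genes (0.182%) and no ABC gene. The 28 include GNMT and OTC, which define that level. 4 ABC genes had an unadjusted p under 0.05, against 10.2% of all genes. ABCA9, a member of a cluster of related ABCA genes, read 6.27, 6.33 and 8.90 after dilution buffer, 8.18, 6.82 and 6.76 after empty liposomes and 6.17, 6.29 and 6.08 after MRX34, and was highest on dilution buffer array 3 and empty liposomes array 1, the 2 arrays with the most liver signal. Its slope was 0.39 (SE 0.08, unadjusted p = 0.0012, limma adjusted p = 0.13) per log2 unit of liver level. ABCF3, a cytosolic ABC ATPase, read 7.51, 7.44 and 5.01 after dilution buffer, 5.45, 6.60 and 7.32 after empty liposomes and 7.0, 6.29 and 7.12 after MRX34 and was lowest on those same arrays. ABCF3 was above background on 7 arrays but on neither of those, so the size of its slope is uncertain. That slope was -0.40 (SE 0.08, unadjusted p = 0.0011, limma adjusted p = 0.128). ABCC11 had a slope of -0.22 (SE 0.07, unadjusted p = 0.0136, limma adjusted p = 0.336) and ABCC2 one of -0.15 (SE 0.05, unadjusted p = 0.0151, limma adjusted p = 0.345). On empty liposomes array 1 ABCC11 was not above background. Next upward were ABCF2 at 0.14 (SE 0.10, limma adjusted p = 0.703) and ABCC9 at 0.07 (SE 0.08, limma adjusted p = 0.793).

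Without the 2 arrays highest in liver signal the slopes were 0.04 for ABCA9, -0.13 for ABCF3, -0.11 for ABCC11 and -0.17 for ABCC2. With median scaling the ABCC11 slope was -0.015. Without dilution buffer array 3 alone the ABCA9 slope was 0.21. In the comparison of MRX34 with controls ABCA9 stood at -1.03 (SE 0.57, limma adjusted p = 0.512), at -0.60 without dilution buffer array 3 and at -0.29 with the liver level as a covariate. With that covariate ABCB1 was at 0.54, ABCB4 at 0.37, ABCC10 at -0.58 and ABCF2 at -0.91. An unadjusted p under 0.05 was then found in ABCB1 and ABCC10 and in 7.62% of all genes, against 11.1% without the covariate.

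**Figure D5:**
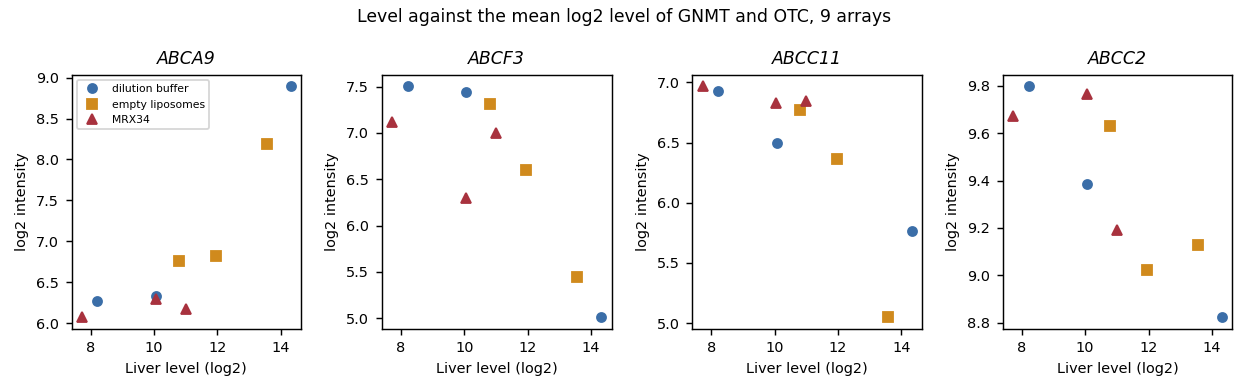
Points are log2 intensities of 4 ABC genes on the 9 arrays against the liver level, the mean log2 level of GNMT and OTC, with groups by colour and shape. ABCA9 reaches 8.90 on the array with the highest liver level. ABCF3 reads 5.01 there, where it was not above background.

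Other genes of the same pathways, not under the ABC symbol rule, were read beside them. TAP1, TAP2 and CFTR, ABC genes with other names, were all tested, and CFTR at 0.44 (SE 0.22, limma adjusted p = 0.479) was the largest of the 3 differences of MRX34 from controls. Of 13 genes of bile acid uptake, synthesis and control, 12 were found on the array and 9 were tested. Of these 9, 4 were higher and 5 lower after MRX34 than in the controls, with a median difference of -0.26. SLC10A1, the bile acid importer, and CYP7A1, which starts bile acid synthesis, were above background on no array. None of the 9 passed the adjusted threshold. An unadjusted p under 0.05 was found in 2 of the 9, against 11.1% of all genes. Both were higher, as were 6.88% of all genes at that p. SLC51A, a subunit of the basolateral bile acid exporter, differed by 1.34 (SE 0.42, unadjusted p = 0.00957, limma adjusted p = 0.374) and CYP8B1, a sterol hydroxylase, by 0.52 (SE 0.20, unadjusted p = 0.0258, limma adjusted p = 0.414).

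All 11 genes of sterol uptake and control were tested, with 7 higher and 4 lower and none past the adjusted threshold. 5 of the 11 had an unadjusted p under 0.05, against 11.1% of all genes, among them MYLIP, SREBF1 and NR1H3, which were higher, and SREBF2, which was lower. MYLIP, a ligase that degrades the LDL receptor, differed by 0.95 (SE 0.34, limma adjusted p = 0.396), SREBF1, a driver of lipid synthesis, by 0.46 (SE 0.18, limma adjusted p = 0.414), and SREBF2, a sterol-responsive transcription factor, by -0.61 (SE 0.24, limma adjusted p = 0.419). Of 8 genes of mitochondrial iron, haem and iron-sulphur assembly 7 were tested, 5 higher and 2 lower. None passed the adjusted threshold. NFS1, the sulphur donor enzyme, was the 1 of 7 with an unadjusted p under 0.05, at -0.81 (SE 0.35, limma adjusted p = 0.441).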

How the data were processed

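Each array measured biotin-labelled whole-tumour RNA. The deposited main table holds probe intensities and detection p-values, per the file headers. Its sorted intensities differed by at most 1.66 between arrays, so its arrays had already been quantile normalized; the method was not stated. A second deposited table, of background-subtracted intensities not normalized between arrays, served for alternatives. ABC genes, lists and tests were chosen with earlier results of these data known. Intensities were background corrected with normexp on detection p-values (offset 16), quantile normalized and log2 transformed with limma 3.58.1 (R 4.3.3). 15387 genes (brightest probe of 19802 named probes detected on at least 3 of 9 arrays) were fitted as 3 group means. Adjusted p is Benjamini-Hochberg over all genes. Genes named were the 3 smallest p in each direction per comparison, and fixed bile, sterol, mitochondrial, lysosomal, peroxisomal and ribosomal sets. Some genes counted in the totals are not reported here. The fit was tested on simulated data. The number of arrays limits precision.

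Arrays with one replicate number in the labels correlated in their deviations for empty liposomes and MRX34 (r = 0.44, 0.49 and 0.28). With dilution buffer the values were mixed (r = -0.32 to 0.30), and arrays with different numbers ran from -0.57 to 0.34. Whether the number pairs arrays is therefore uncertain. The main fit used no pairing, also for MRX34 against empty liposomes. The replicate block used the number in all 3 groups, dilution buffer included.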

Additional observations from a re-analysis of the deposited data

Results flagged for a closer look

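Values far from the other control arrays were sought among the 6 controls of each tested ABC gene, where chance marks about 1 gene in 20. Empty liposomes array 1 was at 5.54 for ABCA11P, next to 6.47, and at 5.80 for ABCG1, next to 7.31, the lowest control in each, and was not above background for either. ABCA7 was highest on empty liposomes array 3, at 8.66, next to 8.10. Causes were not tested.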

How the results depend on the processing

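No ABC gene was called under the alternatives other than array weights and the slope without group terms. Array weights (8.12 for dilution buffer array 2 and 4.65 for MRX34 array 3, at most 1.94 for the others) called 3 ABC genes in MRX34 against controls (with ABCB1 and ABCC10 among them) of 1465 genes in all, and 5 against dilution buffer (with ABCB6 and ABCC13 among them) of 2828. The slope without group terms called 1 ABC gene, ABCA9 at 0.40 (limma adjusted p = 0.0295), of 162 genes in all, against 28 genes with group terms. ABC median differences of MRX34 from controls, 0.15 in the report, were -0.0426 with median scaling, 0.0368 without the filter and 0.0384 with array weights. The medians of all genes were then -0.0799, -0.00216 and 0.00993. The ABC median was -0.021 with the liver covariate, -0.00649 without the 2 arrays far on the first component and 0.0348 without the 2 highest in liver signal. The medians of all genes were then 0.0236, 0.00897 and 0.018. The ABC medians relative to empty liposomes were -0.0838 with median scaling, 0.0307 without the filter, -0.081 with the liver covariate and -0.031 without the far arrays. The medians of all genes were then -0.167, 0.000486, 0.0226 and 0.0013, in that order. Relative to dilution buffer the ABC medians were -0.00146 with array weights, 0.0209 with the liver covariate and -0.0296 without the 2 highest in liver signal. The medians of all genes were then 0.0165, 0.0188 and 0.0259. Single omissions gave ABC medians of -0.0296 to 0.197. The carrier comparison gave ABC medians of 0.0667 with median scaling and 0.0239 when all 9 arrays had to be above background. The medians of all genes were then 0.135 and 0.0153. Genes with an unadjusted p under 0.05, 5 of 35, numbered 8 of 47 without the filter (8.25% of all genes then). They numbered 3 with trended variance (11.5% of all genes), 12 with array weights (28.2%) and 3 with the replicate block (12.5%). The count was 2 with the liver covariate (7.62%), 1 without both far arrays (9.82%) and 1 to 6 over single omissions (6.88% to 14.7%). MRX34 lay beyond all controls in 7 genes without both far arrays and in 4 to 7 over single omissions. The share of all genes was not counted in these omissions. Fewer arrays make such a separation easier for any gene, so these counts are not a result about ABC genes. ABCG1 in the carrier comparison turned to 0.48 with probes averaged, and the ABCF2 slope to -0.0876 without the 2 highest arrays. In all, 226 other summary values stayed within 1.5 times or 1 SD and 697 gene values kept their direction and side. With the replicate block, 4 ABC genes had an unadjusted p under 0.05 relative to empty liposomes (10.8% of all genes) and 2 relative to the buffer (12%). No call of an ABC gene changed with it. Causes were not tested. The omissions of 2 arrays, the count at an unadjusted p and the count beyond all controls were chosen after seeing the data. Limits on precision were not compared.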
